A study of Homo sapiens with 24 samples.

Results

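The 9 genes described here encode feedback inhibitors and membrane modulators of fibroblast growth factor (FGF) signaling: the Sprouty genes SPRY1, SPRY2 and SPRY4, the Sprouty-related SPRED1, SPRED2 and SPRED3, the membrane receptor gene IL17RD (Sef), and FLRT2 and FLRT3, which encode leucine-rich repeat proteins of the cell surface. They were chosen by gene symbol from 34305 genes listed in the deposited count tables, and all 9 were listed in each of the 4 tables and passed the filter on low counts in every comparison. RNA was sequenced from 2 forms of HEK293, a human embryonic kidney cell line that the labels call kidney epithelial: the wild type (WT) and a derivative with a stable Klotho transgene (Kl). FGF23, as the recombinant human protein, was given to each line at a low dose (0.5 nM) for 1 h and at a high dose (10 nM) for 24 h. Each line had untreated controls (Ctrl) for each time, which gave 8 groups of 3 libraries and 24 libraries in all. The question the design addresses is which FGF23 responses depend on Klotho. Dose and time changed together, so 1 h and 24 h differ in both. The promoter that drives the Klotho transgene and the number of clones behind the Kl line are not given in the sources used here. The labels do not say that the 3 libraries of a group are separate cultures, so p-values measure the spread between these samples, which may be technical.

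FGF23 is a hormone from bone that acts on the kidney, and it binds FGF receptors well only where the co-receptor Klotho is present. An occupied FGF receptor recruits adaptors such as FRS2 and GRB2 and drives RAS and, through a kinase cascade, ERK. Sprouty and SPRED proteins are membrane-associated inhibitors of this path whose genes are themselves switched on by receptor signaling, which closes a negative feedback loop. Sprouty proteins bind GRB2 and CBL, and SPRED proteins carry the RAS-inactivating protein neurofibromin (NF1) to the membrane. IL17RD holds back ERK signaling at membranes. FLRT proteins guide and adhere cells through UNC5 and latrophilin (ADGRL) receptors, and FLRT3 is known from Xenopus as a positive modulator of FGF signaling.

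Libraries held between 15849564 and 30446989 counts. KL, the Klotho gene, lay at 0 to 0.781 CPM (counts over the library total, scaled with TMM factors over all 24 libraries) in the 12 WT libraries and at 1000 to 2170 CPM in the 12 Kl libraries, so every library matched its line label. Within the Kl line KL was also higher after FGF23, by 0.69 on the log2 scale at 1 h and by 0.89 at 24 h. Of 11 kidney epithelial markers, 6 had a mean of at least 1 CPM in every group. The renal markers PAX8, CDH16 and AQP2 reached at most 0.4 CPM in any library, while PAX2 lay at 7.02 to 14.6 CPM and LRP2 at 13.0 to 27.5. Of the neuronal markers NEFL lay at 145 to 228 CPM, ENO2 at 37.0 to 59.5 and NEFM at 5.15 to 23.6. STMN2 reached at most 0.11 CPM and TUBB3 at most 1.77. The treated Kl libraries of 1 h stood apart: their median distance from their group, over 14994 genes, was 0.279, 0.179 and 0.178 on the log2 scale in libraries 1, 2 and 3, against 0.0612 to 0.115 in all other groups.

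Stretches before a transcript start are shown for 4 members because their transcripts took different courses in Kl cells. SPRY2 and SPRY4 were high within 1 h. SPRED2 was high in all libraries only at 24 h, and FLRT3 was low at 24 h. Sequences are those of RefSeq for GRCh38.p14, on the strand of the gene, cut to the longest stretch free of annotated exons within 250 bases before a transcript start. All 9 members had an entry, with 17 windows between them. Capitals mark matches on either strand to CCGGAA (a longer form of the GGAA core bound by ETS factors), TGANTCA (AP-1), TGACGT (CRE), GCGNGGGCG (EGR factors) or the CArG box of SRF. The shorter GGAA core itself was not searched or marked. The SPRY2 stretch is chr13:80341127-80341376 (minus strand), the SPRY4 stretch chr5:142324418-142324497 (minus strand), the SPRED2 stretch chr2:65432638-65432849 (minus strand) and the FLRT3 stretch chr20:14337617-14337862 (minus strand).
SPRY2: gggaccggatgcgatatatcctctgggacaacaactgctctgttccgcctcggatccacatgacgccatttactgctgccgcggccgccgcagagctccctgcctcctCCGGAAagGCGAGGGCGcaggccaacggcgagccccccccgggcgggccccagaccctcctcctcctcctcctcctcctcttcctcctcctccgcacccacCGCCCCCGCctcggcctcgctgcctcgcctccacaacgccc
SPRY4: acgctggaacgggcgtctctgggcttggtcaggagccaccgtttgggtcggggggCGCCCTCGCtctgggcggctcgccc
SPRED2: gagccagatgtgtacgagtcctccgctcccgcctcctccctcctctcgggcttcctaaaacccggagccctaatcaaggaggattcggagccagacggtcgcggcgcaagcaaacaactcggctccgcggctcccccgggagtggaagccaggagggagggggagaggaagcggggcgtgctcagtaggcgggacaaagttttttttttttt
FLRT3: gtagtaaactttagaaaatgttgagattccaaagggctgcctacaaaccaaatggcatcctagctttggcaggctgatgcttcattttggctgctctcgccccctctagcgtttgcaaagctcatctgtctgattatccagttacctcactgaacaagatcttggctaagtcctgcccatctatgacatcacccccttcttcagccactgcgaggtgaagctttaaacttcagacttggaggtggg

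In the SPRY2 stretch the ETS match begins 142 bases before the start and EGR matches begin 134 and 41 bases before it, without overlap. The SPRY4 stretch holds 1 EGR match, 195 bases before a transcript start at chr5:142324247. That start lies inside the annotated SPRY4 gene, and no window at the outer start of the gene was searched. The SPRED2 and FLRT3 stretches hold no match to the letters searched, which leaves shorter GGAA cores uncounted. Over the 17 windows of the members, EGR matches occurred in 3 (1 each of SPRY1, SPRY2 and SPRY4), ETS matches in 2 (SPRY1 and SPRY2) and an AP-1 match in 1 (SPRED3). Among all 35116 windows of the same length the share with a match was 8.41% for EGR, 14.5% for ETS, 6.57% for AP-1, 7.1% for CRE and 1.16% for the CArG box. A match describes letters only and is no evidence of binding.

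SPRY4 gave the largest fitted rise of the 9 genes in Kl cells at both times. SPRY4 and SPRY2 rose at 1 h and at 24 h, and SPRY1 rose at 24 h. In these bulk libraries more RNA per cell and more cells with the RNA cannot be told apart. In WT cells no Sprouty gene passed the test at either time.

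SPRY4 (ENSG00000187678, chr5:142310427-142326455, minus strand) encodes a feedback inhibitor of RAS-ERK signaling. In untreated WT cells it had 1.27, 1.44 and 1.51 CPM at 1 h and 1.49, 2.17 and 1.90 at 24 h. In untreated Kl cells it had 2.17, 2.18 and 1.93 CPM at 1 h and 3.56, 2.44 and 3.04 at 24 h. It was thus a low transcript in all controls. FGF23 took it to 17.0, 13.0 and 19.4 CPM in Kl cells at 1 h and to 50.5, 48.5 and 46.0 CPM at 24 h, and treated and control libraries did not overlap at either time. The fitted log2 change was 2.97 ± 0.199 (SE, n = 3 against 3) at 1 h, a 7.85-fold rise with an adjusted p of 5.92e-06 in edgeR's quasi-likelihood test. At 24 h it was 3.99 ± 0.106, a 15.9-fold rise with an edgeR adjusted p of 6.27e-21. In WT cells treated libraries had 2.02, 1.73 and 2.02 CPM at 1 h, all above the 3 controls, and 1.96, 2.12 and 2.73 CPM at 24 h, overlapping them. Neither WT change passed the test (log2 0.46 ± 0.259 and 0.27 ± 0.238, edgeR adjusted p 0.996 and 0.781).

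SPRY2 (ENSG00000136158, chr13:80335976-80340951, minus strand), which binds CBL and GRB2, had a higher resting level and a smaller change. Untreated Kl cells had 17.9, 18.1 and 17.5 CPM at 1 h and 19.7, 20.7 and 19.5 at 24 h. Treated Kl cells had 48.9, 46.0 and 43.8 CPM at 1 h and 51.4, 46.7 and 48.2 at 24 h, 2 ranges that overlap and lie above every control. The log2 change was 1.38 ± 0.115 at 1 h (2.6-fold, edgeR adjusted p 4.14e-05) and 1.29 ± 0.071 at 24 h (2.44-fold, edgeR adjusted p 6.8e-14). In WT cells all 12 libraries lay between 15.4 and 20.0 CPM, and the log2 changes of 0.15 at 1 h and 0.02 at 24 h did not pass the test (edgeR adjusted p 0.996 and 0.955).

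SPRY1 (ENSG00000164056, chr4:123396795-123403760, plus strand), the Sprouty gene needed for kidney development in mice, responded later. At 1 h the treated Kl libraries had 14.6, 18.6 and 19.7 CPM against 13.7, 15.3 and 16.3 in controls, which overlapped (log2 0.23 ± 0.146, edgeR adjusted p 0.744). At 24 h they had 21.8, 25.4 and 23.3 CPM against 18.0, 12.9 and 15.9, without overlap. That rise was 0.59 ± 0.0985 on the log2 scale (1.51-fold, edgeR adjusted p 8.21e-05). In WT cells the libraries lay between 10.3 and 13.3 CPM with or without FGF23.

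**Figure D1:**
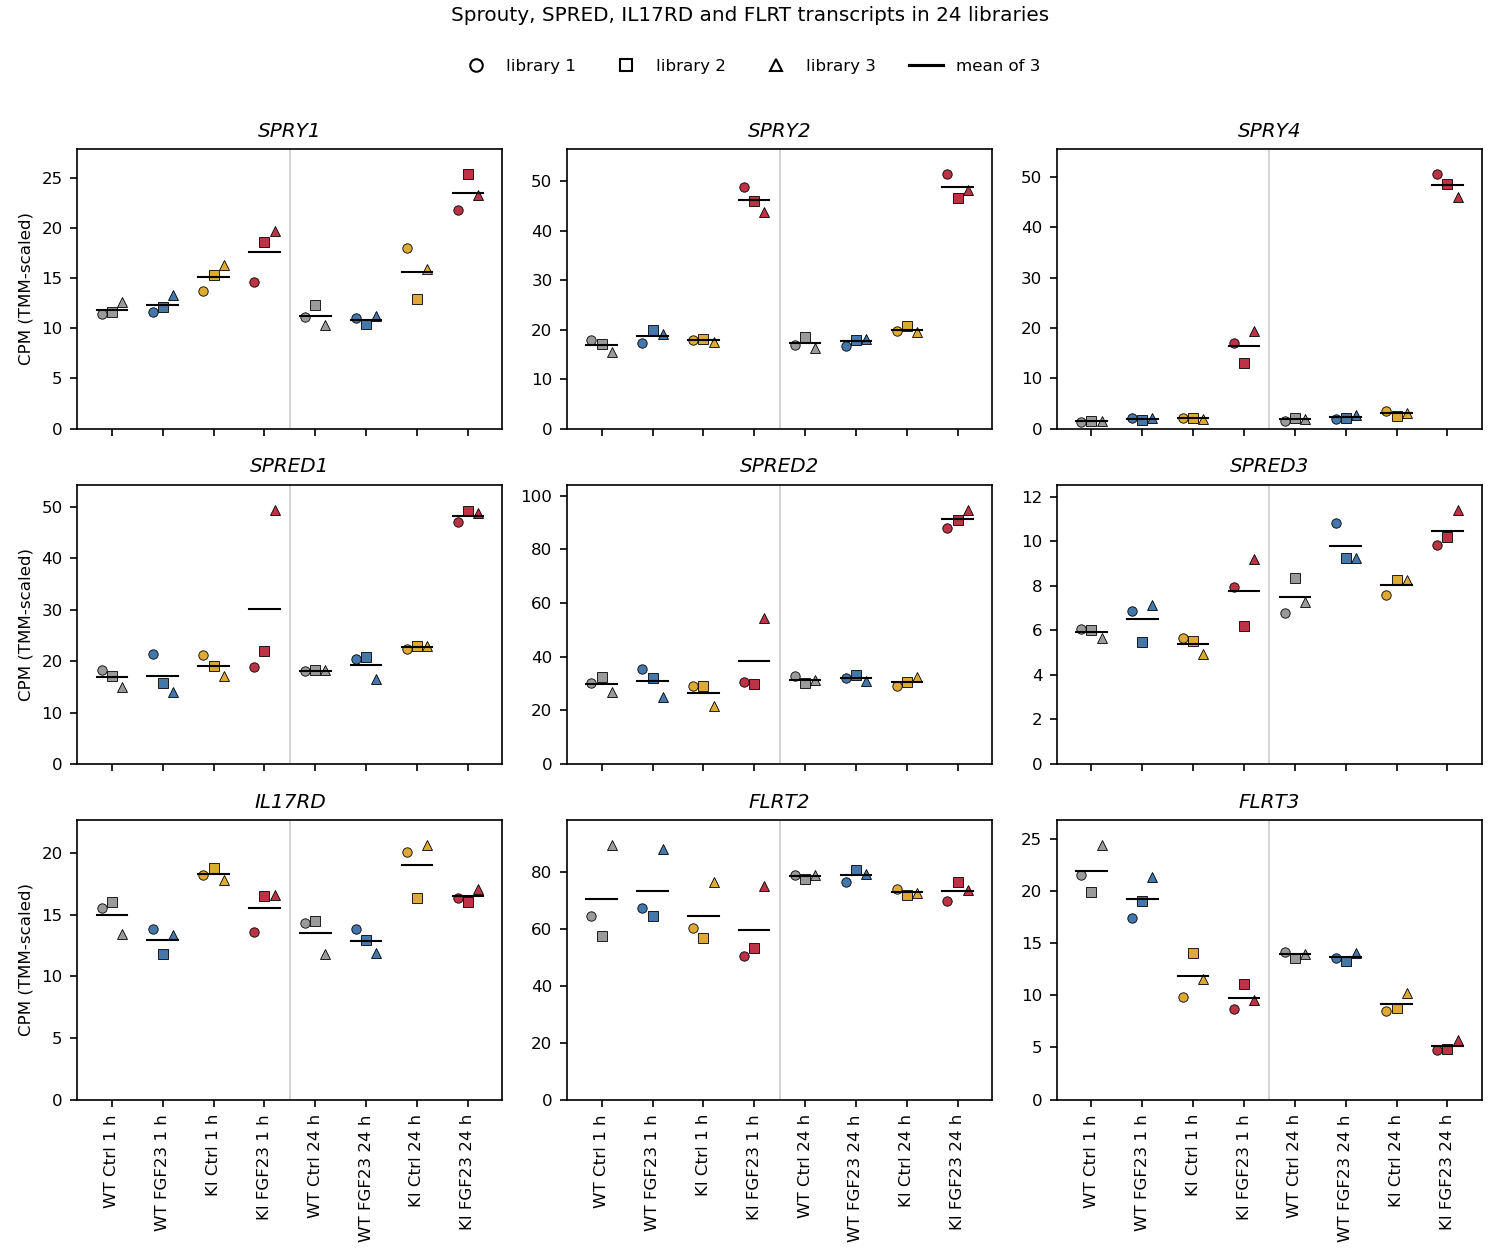
Levels of the 9 transcripts in each of the 24 libraries, in CPM scaled with TMM factors on a linear axis from 0, by group; symbols are libraries 1 to 3 and bars are group means. SPRY4 stays at or below 3.56 CPM in every control and WT library and reaches 46.0 to 50.5 CPM in treated Kl cells at 24 h, while FLRT3 is lowest there.

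SPRED2 and SPRED1 were high in Kl cells after 24 h of FGF23. SPRED2 (ENSG00000198369, chr2:65310851-65432637, minus strand) had 29.1, 30.6 and 32.3 CPM in controls and 87.8, 90.9 and 94.7 after FGF23, a log2 rise of 1.57 ± 0.0601 (2.98-fold, edgeR adjusted p 1.59e-17). SPRED1 (ENSG00000166068, chr15:38252326-38357249, plus strand), the gene mutated in Legius syndrome, had 22.3, 22.9 and 22.9 CPM in controls and 47.0, 49.1 and 48.8 after FGF23. Its log2 rise was 1.09 ± 0.0674 (2.13-fold, edgeR adjusted p 7.61e-13). For both genes the groups lay far apart and the libraries within a group close together.

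At 1 h the picture for both genes rested on 1 library. SPRED1 had 18.9, 21.9 and 49.4 CPM in treated Kl libraries 1, 2 and 3 against 21.2, 19.1 and 17.1 in controls. SPRED2 had 30.5, 29.8 and 54.6 CPM against 29.0, 29.2 and 21.6. Library 3 alone was high for both, and its SPRED1 level was that of the libraries of 24 h. The log2 changes were 0.66 ± 0.325 and 0.53 ± 0.215 and did not pass the test (edgeR adjusted p 0.692 and 0.547). Without library 3 the fitted log2 changes fell to 0.10 for SPRED1 and 0.19 for SPRED2.

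In the same library other transcripts of the ERK path also differed from libraries 1 and 2. ETV5, an ETS factor that FGF signaling induces, had 24.7 CPM there against 8.05 and 7.40, and ETV4, its paralog, had 8.82 against 4.21 and 3.05. The immediate-early gene EGR1 had 580 CPM against 1050 and 823, and FOS had 38.7 CPM against 67.9 and 75.4. Library 3 thus had more ETV5 and ETV4, which were high at 24 h, and less EGR1 and FOS, which were highest at 1 h. Other transcripts raised at 24 h did not all follow ETV5 and ETV4. DUSP4 was higher in library 3, at 22.7 CPM against 17.6 and 16.4. DUSP5 had 34.2 CPM in library 3 against 52.9 and 49.2, and DUSP6 had 22.0 against 17.6 and 21.8. The share of mitochondrial counts in treated Kl library 3, 8.27%, was the highest of the 24 libraries. Library 3 was also the highest within each other group of 1 h, at 7.22% (WT control), 6.84% (treated WT) and 7.62% (Kl control). Of the 3 treated Kl libraries of 1 h, library 3 had the highest SPRY4 level (19.4 CPM against 17.0 and 13.0). It had the lowest SPRY2 level (43.8 CPM against 48.9 and 46.0). The part of library 3 in the 1 h spread of the SPRED genes was not tested beyond leaving it out.

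**Figure D2:**
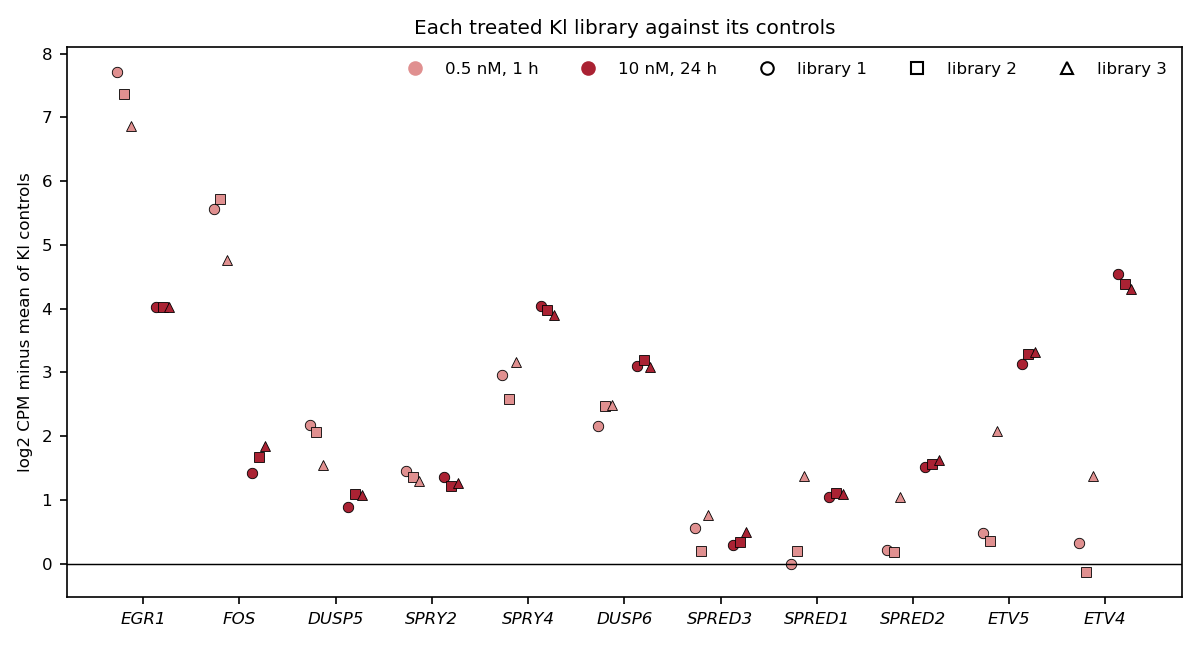
Each treated Kl library minus the mean of the 3 Kl controls of the same time, on the log2 CPM scale (vertical axis), for 4 Sprouty and SPRED genes that rose, SPRED3 and 6 other genes of the ERK path; light symbols are 0.5 nM for 1 h, dark symbols 10 nM for 24 h, and shapes are libraries 1 to 3. At 1 h library 3 stands above the others for SPRED1, SPRED2, SPRED3, SPRY4, ETV5 and ETV4 and below them for EGR1, FOS and DUSP5.

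SPRED3 (ENSG00000188766, chr19:38388421-38399587, plus strand), found mainly in the brain in mice, gave a small difference of like size in both lines at 24 h. Kl libraries had 9.82, 10.2 and 11.4 CPM after FGF23 against 7.58, 8.25 and 8.27. WT libraries had 10.8, 9.25 and 9.26 CPM against 6.79, 8.36 and 7.29. Treated and control libraries overlapped in neither line. The log2 change was 0.39 ± 0.116 in Kl (1.31-fold, edgeR adjusted p 0.0188), which passed the test, and 0.37 ± 0.116 in WT (1.29-fold, edgeR adjusted p 0.147), which did not. The difference between the lines was 0.01 ± 0.165 on the log2 scale (edgeR adjusted p 0.967), an interval that leaves room for a gap of either sign. The Kl call was lost without control library 1 (edgeR adjusted p 0.0929), without treated library 3 (0.116) and in a fit to all 24 libraries (0.0688), and the adjusted p in the authors' deposited table was 0.0746. At 1 h Kl libraries had 7.92, 6.17 and 9.18 CPM against 5.65, 5.52 and 4.92, also without overlap (log2 0.53 ± 0.186, edgeR adjusted p 0.453). A fit to all 24 libraries called this difference (edgeR adjusted p 0.0271), which made 3 members called at 1 h in place of 2.

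Of the membrane modulators, FLRT3 (ENSG00000125848, chr20:14322988-14337616, minus strand) fell after FGF23 in Kl cells, and it was already lower in untreated Kl than in WT cells. IL17RD and FLRT2 did not pass the test for FGF23 in any group.

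FLRT3 in untreated WT cells had 21.6, 19.9 and 24.4 CPM at 1 h and 14.2, 13.6 and 14.0 at 24 h. In untreated Kl cells it had 9.88, 14.1 and 11.6 CPM at 1 h and 8.54, 8.81 and 10.2 at 24 h, below every WT control of the same time. FGF23 left it at 8.74, 11.1 and 9.54 CPM in Kl cells at 1 h, overlapping the controls, and at 4.77, 4.83 and 5.69 CPM at 24 h, below all of them. The change in Kl cells was -0.27 ± 0.166 on the log2 scale at 1 h (edgeR adjusted p 0.744) and -0.85 ± 0.138 at 24 h (0.557 of the control level, edgeR adjusted p 5.62e-05). In WT cells at 24 h treated libraries had 13.6, 13.3 and 14.1 CPM, overlapping the controls.

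IL17RD (ENSG00000144730, chr3:57089982-57170306, minus strand) had 13.6, 16.5 and 16.6 CPM in treated Kl libraries of 1 h, below the controls at 18.2, 18.8 and 17.8. At 24 h it had 16.3, 16.0 and 17.1 CPM against 20.1, 16.3 and 20.6, which overlapped. The log2 changes, -0.22 ± 0.131 and -0.21 ± 0.0931, did not pass the test (edgeR adjusted p 0.732 and 0.121). Without Kl control library 2 of 24 h the change was -0.31 and passed it (edgeR adjusted p 0.0281). In WT cells at 1 h the log2 change of IL17RD was of like size, -0.22 ± 0.103, and did not pass the test (edgeR adjusted p 0.996). FLRT2 (ENSG00000185070, chr14:85530144-85654426, plus strand) had 74.0, 71.9 and 72.7 CPM in Kl controls of 24 h and 70.0, 76.7 and 73.8 after FGF23, a log2 difference of 0.02 ± 0.0533 (edgeR adjusted p 0.879). At 1 h library 3 had the highest FLRT2 level in all 4 groups, at 75.3 to 89.4 CPM against 50.5 to 67.5 in libraries 1 and 2. Of 14994 genes, 5.5% were highest in library 3 of all 4 groups of 1 h, against 1.03% for library 1 and 1.61% for library 2.

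**Figure D3:**
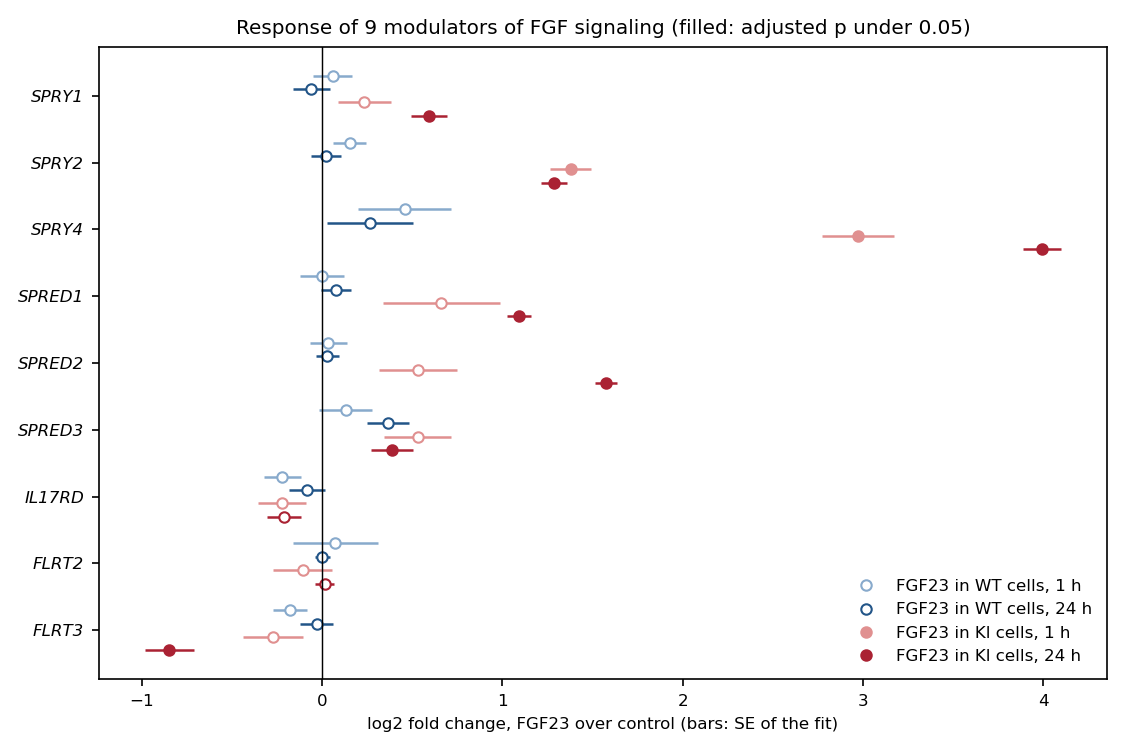
Fitted log2 fold change of FGF23 over control for the 9 genes in the 4 comparisons, with bars of 1 SE; filled symbols have an edgeR adjusted p under 0.05. In Kl cells 2 genes are filled at 1 h and 7 at 24 h, of which FLRT3 lies below 0, and none is filled in WT cells.

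As counts over the 9 genes, 2 rose and none fell in Kl cells at 1 h, where edgeR called 0.554% of all 16250 genes tested, 0.535% higher and 0.0185% lower. With the replicate number as a block the count over all genes was 176 in place of 90, and SPRY2 and SPRY4 stayed the members called. Libraries did not overlap for 5 of the 9, against 14.0% of all genes. The median log2 change was 0.53 over the 9 genes and -0.005 over all genes tested.

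In Kl cells at 24 h, 6 rose and 1 fell, where edgeR called 19.3% of 16232 genes, 10.4% higher and 8.87% lower. Libraries did not overlap for the same 7, against 33.1% of all genes. The median was 0.59 over the 9 genes and -0.002 over all. Summed marker levels moved as well. Kidney epithelial markers summed to 527 to 553 CPM in these controls and to 625 to 676 CPM after FGF23. Neuronal markers summed to 188 to 202 and 205 to 216 CPM, and fibroblast markers to 12.8 to 14.0 and 11.5 to 12.7 CPM. KRT8 made up most of the kidney sum and NEFL most of the neuronal sum, so the sums do not show that each marker moved. The part of these markers in the FGF23 changes was not tested.

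In WT cells edgeR called none of the 9 at either time, and neither did limma voom. DESeq2 called none at 1 h. At 24 h DESeq2 gave no adjusted p for most of the 9, so it could not call those, and it called none of the rest. At an unadjusted p under 0.05 there was 1 member each: IL17RD at 1 h (p 0.0423) and SPRED3 at 24 h (p 0.0027). edgeR called 0.0% of 16748 genes at 1 h, where 683 had an unadjusted p under 0.05, DESeq2 called 1 and voom 0, and 0.666% of 16663 genes at 24 h. Libraries did not overlap for 1 member at each time, SPRY4 at 1 h and SPRED3 at 24 h, against 9.49% and 15.0% of all genes.

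Besides the transgene the lines may differ in other ways, as edgeR called 41.1% of 16437 genes between their controls of 24 h. Klotho and other line differences cannot be told apart in what follows. The test that the design offers for Klotho dependence is the difference between the FGF23 effect in Kl and that in WT cells. At 1 h it passed for SPRY4 (2.51 ± 0.28 on the log2 scale) and SPRY2 (1.22 ± 0.136), both with an edgeR adjusted p of 7.67e-05, where 0.35% of 17164 genes were called. With the replicate block 92 genes were called over all in place of 60, and the same 2 members. At 24 h it passed for 6 members, where 14.6% of 17173 genes were called, 7.88% higher and 6.77% lower: SPRY4, SPRED2, SPRY2, SPRED1 and SPRY1 were raised more in Kl cells and FLRT3 was lowered more. The differences were 3.73 ± 0.239 for SPRY4 (edgeR adjusted p 4.77e-17) and 1.54 ± 0.0851 for SPRED2 (2.15e-19). They were 1.26 ± 0.107 for SPRY2 (edgeR adjusted p 6.22e-13) and 1.01 ± 0.107 for SPRED1 (4.36e-10). For SPRY1 the difference was 0.65 ± 0.143 (edgeR adjusted p 0.00103) and for FLRT3 -0.82 ± 0.155 (0.000134). SPRED1 lost this call in a fit to all 24 libraries (edgeR adjusted p 0.139).

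Between the 2 treatments of Kl cells, the SPRY2 effects differed by -0.09 ± 0.119 on the log2 scale (24 h minus 1 h), which did not pass the test (edgeR adjusted p 0.756). SPRED2 and SPRY4 rose more at 10 nM and 24 h than at 0.5 nM and 1 h, by 1.04 ± 0.25 and 1.03 ± 0.249 (edgeR adjusted p 0.048 and 0.0486), where 1.45% of 16920 genes were called. Both calls lie close to the threshold: each held in 3 of 12 fits that left out 1 library, with adjusted p up to 0.215 and 0.173. The replicate block kept SPRY4 (adjusted p 0.0296) and lost SPRED2 (0.073). Without treated library 3 of 1 h SPRED1 also passed, at 0.99 (edgeR adjusted p 0.00067), and SPRED2 stood at 1.39 (4.46e-05). Dose and time cannot be told apart in this difference.

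The resting levels of several members also differed between the lines. In controls of 1 h FLRT3 was lower in Kl (-0.87 ± 0.115 on the log2 scale, edgeR adjusted p 1.24e-06), and SPRY1 (0.35 ± 0.11, 0.0199) and IL17RD (0.28 ± 0.102, 0.0439) were higher, where 21.5% of 16470 genes were called. In controls of 24 h, 7 of the 9 passed, where 41.1% of 16437 genes were called. FLRT3 was again lower (-0.61 ± 0.104, edgeR adjusted p 3.5e-06), and IL17RD (0.48 ± 0.0953, 4.57e-05), SPRY1 (0.47 ± 0.104, 0.000258) and SPRED1 (0.31 ± 0.0781, 0.00095) were higher. In a fit to all 24 libraries the SPRED1 call was lost (edgeR adjusted p 0.418).

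SPRY4 was higher by 0.68 ± 0.227 (edgeR adjusted p 0.0136), a call lost without WT control library 1 (0.0725) or Kl control library 1 (0.104). SPRY2 (0.20 ± 0.0833, edgeR adjusted p 0.0439) and FLRT2 (-0.11 ± 0.0453, 0.0393) passed narrowly. SPRY2 lost its call in 5 of 6 fits that left out 1 library and FLRT2 in 6 of 6. The SPRY1 and IL17RD calls of 1 h were lost in 4 and 5 of 6 such fits, and the FLRT3 calls in none. Libraries of the lines did not overlap for 5 of the 9 genes at 1 h, against 35.4% of all genes, and for 7 at 24 h, against 48.8%. The summed level of kidney epithelial markers differed between the lines, at 782 to 802 CPM in WT controls of 24 h and 527 to 553 CPM in Kl controls. Most of this sum was KRT8, at 349 to 710 CPM over the 24 libraries. Neuronal markers summed to 244 to 254 CPM in the same WT controls and to 188 to 202 CPM in the Kl controls. Their part in the line differences of the 9 genes was not tested.

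Levels per gene length, in TPM (counts over the deposited gene length, scaled to a common total), put the members in order. In Kl controls of 24 h SPRY2 (23.7 ± 0.663, SD, n = 3) and SPRED2 (21.4 ± 1.12) led, followed by SPRY1 (14.2 ± 2.37) and SPRED1 (9.90 ± 0.135). FLRT2 (7.52 ± 0.129), IL17RD (7.17 ± 0.909) and FLRT3 (6.38 ± 0.629) came next, and neighbours among these 3 overlapped. SPRED3 (4.94 ± 0.232) and SPRY4 (1.65 ± 0.314) were lowest, and SPRY4 was last in all control and WT groups.

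After 24 h of FGF23 the order in Kl cells was SPRED2 (63.6 ± 2.04 TPM), SPRY2 (57.8 ± 3.29), SPRY4 (26.5 ± 1.4), SPRY1 (21.3 ± 1.48) and SPRED1 (21.0 ± 0.333). SPRY4 had moved from the last to the third place. SPRY1 and SPRED1 overlapped, as did SPRED3 (6.43 ± 0.462) and IL17RD (6.19 ± 0.211) further down. FLRT3 was last, at 3.53 ± 0.34 TPM.

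Summed over the 3 Sprouty genes, the level per length was 39.6 ± 2.2 TPM in Kl controls and 106.0 ± 3.3 after FGF23 at 24 h, and SPRY4 made up 4.16% of the first sum and 25.1% of the second. At 1 h the sums were 35.0 ± 0.853 and 74.0 ± 2.46 TPM, with SPRY4 at 3.2% and 11.3%. The 3 SPRED genes summed to 36.3 ± 1.45 and 91.1 ± 2.72 TPM at 24 h. FLRT2 and FLRT3 together went from 13.9 ± 0.617 to 11.1 ± 0.454 TPM, with the FLRT3 share at 45.8% and 31.8%. These sums describe the same counts as the tests above and carry no test of their own.

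**Figure D4:**
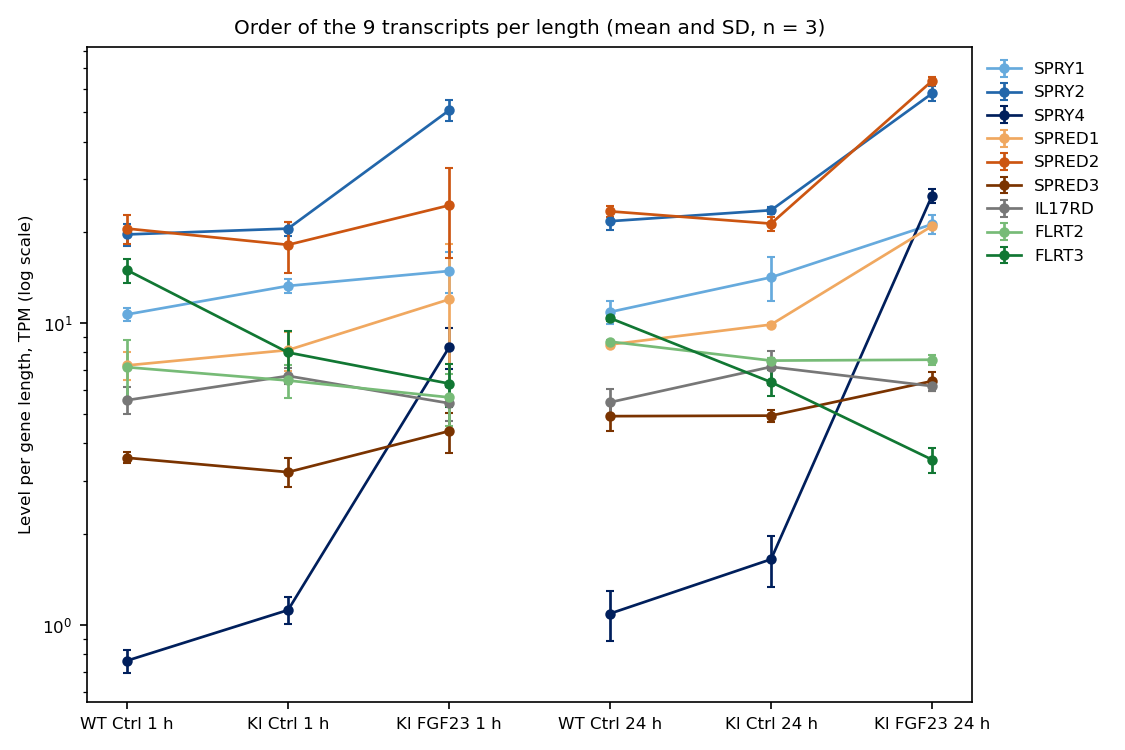
Level per gene length of the 9 genes (TPM, log axis; mean and SD, n = 3) in WT controls, Kl controls and treated Kl cells of 1 h (left) and 24 h (right). SPRY4 climbs from the bottom to 26.5 TPM at 24 h, and FLRT3 drops to 3.53 TPM.

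Among themselves the members fell into patterns that can be described by Pearson's r of log2 CPM over the 24 libraries, which share the 8 groups and are no independent points. SPRY2 and SPRY4 had r = 0.964 and SPRED1 and SPRED2 r = 0.918. FLRT3 ran opposite to SPRY4 (r = -0.841) and SPRED1 (r = -0.828). FLRT2 followed none of the other 8 closely, with r from -0.314 to 0.33.

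Of 14994 genes compared over the 24 libraries, those most like SPRY4 were DUSP6 (r = 0.978), SPRY2 (0.964) and IER3 (0.931), and those most like SPRY2 were DUSP6 (0.968), SPRY4 (0.964) and DUSP5 (0.926). DUSP6 and DUSP5 encode phosphatases of ERK. Most like SPRED1 were VCL (0.949), ETV5 (0.942) and TRIM9 (0.939), and most like SPRED2 were IRS1 (0.944), SLC2A3 (0.931) and TES (0.927). SPRY1 was most like SLC37A3 (0.937), LAMA4 (0.924) and ETV1 (0.921), and FLRT3 was most like DDB2 (0.950), CTSV (0.941) and DSEL (0.939). The closest genes were SCAF4 for SPRED3 (0.866), ZC3HC1 for IL17RD (0.834) and ZNF230 for FLRT2 (0.918).

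The 2 remaining relatives, SPRY3 and FLRT1, were low in Kl cells, at 1.5 to 3.5 and 1.1 to 3.88 CPM, and neither passed the test for FGF23 in any group. Of 12 other feedback and output genes of the ERK path, 6 rose in Kl cells at 1 h and 10 at 24 h, and none fell. The largest log2 rises were EGR1 (7.37), FOS (5.46), DUSP6 (2.39) and DUSP5 (1.96) at 1 h, and ETV4 (4.45), EGR1 (4.04), ETV5 (3.26) and DUSP6 (3.15) at 24 h. In WT cells none of the 12 passed at either time, where edgeR called 0.0% of all genes at 1 h and 0.666% at 24 h. Over all genes tested, edgeR called 0.554% in Kl cells at 1 h and 19.3% at 24 h.

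Of 13 genes for partners and regulators of Sprouty and SPRED proteins, none passed in Kl cells at 1 h, while 5 rose and 1 fell at 24 h. NEDD4, a ubiquitin ligase that targets SPRY2, rose by 0.54 on the log2 scale, NF1 by 0.33 and SIAH2, another ligase for SPRY2, by 0.24, and LZTR1, an adaptor for RAS degradation, fell by 0.29. In WT cells at 24 h NF1 alone passed and fell by 0.19. The median over the 13 at 24 h in Kl was 0.05. Over all genes tested at 24 h, edgeR called 19.3% in Kl and 0.666% in WT cells.

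Of 7 FLRT receptor genes, 3 rose and 1 fell in Kl cells at 24 h: UNC5B by 0.78, UNC5A by 0.52 and UNC5C by 0.31 upwards, and ADGRL3 fell by 0.24. None of the 7 passed at 1 h or in WT cells. Over all genes tested, edgeR called 0.554% in Kl cells at 1 h and 19.3% at 24 h. Of 23 genes of the FGF receptor to ERK path, KL alone rose in Kl cells at 1 h, a call not kept in every alternative fit. The Kl line carries a Klotho transgene, and counts of KL do not separate it from the cell's own gene. At 24 h 4 of the 23 rose, KL (0.89), FGFR1 (0.52), SOS2 (0.45) and SHC1 (0.21), and 1 fell. In WT cells 22 of the 23 were tested, as KL was too low, and none passed. Over all genes tested in WT cells, edgeR called 0.0% at 1 h and 0.666% at 24 h.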

How the data were processed

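The authors deposited 4 tables, each with 6 libraries of 1 FGF23 comparison. Per the file headers these hold raw counts per gene, a signal (those counts over a library size factor), FPKM, gene length, and the authors' log2 fold change with its p-value and adjusted p-value. Only counts and gene lengths entered the tests and levels here, and the deposited signal and FPKM values were not used. Aligner, counter, strand setting and the authors' test are not given in the sources used here. The submitters' processing notes name mm10, whereas 34299 of 34305 gene IDs had the start and end of human GRCh38 in GENCODE 29. Exons of other genes shared no bases with the members.

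Counts were joined by gene ID. Each comparison was fitted on its own libraries in edgeR 4.0.16 (filterByExpr, TMM, robust quasi-likelihood, Benjamini-Hochberg over all genes tested, called at 0.05), because the treated Kl libraries of 1 h spread wider. SE is the log2 change over the square root of F. Fold changes from edgeR were checked on counts simulated with a spread shared by the groups. That check set no limit on false calls and does not cover the wider spread of the treated Kl libraries of 1 h. DESeq2 1.42.0, limma 3.58.1 (voom with a spread per group) and the other alternatives are given at the end. R 4.3.3 and Python 3.11.15 were used. Deviations of same-numbered treated and control libraries correlated by 0.13, 0.23 and 0.14 in Kl at 1 h, by 0.07, 0.12 and 0.17 in WT at 1 h, and by at most 0.11 at 24 h. A pairing by number in Kl at 1 h is thus read from the data, not from the labels, and a replicate block served as an alternative. The members are all named, and other lists name the called genes with the largest changes, at most 4 each, and 1 result that this rule selects is not reported here. The members and lists were chosen with earlier results of these data known.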

Additional observations from a re-analysis of the deposited data

Results flagged for a closer look

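These 10 results are listed because an FGF23 effect differed between lines or treatments by a test of the difference itself (edgeR, adjusted over all genes, as given above with errors). Between Kl and WT cells the log2 difference at 1 h was 1.22 for SPRY2 and 2.51 for SPRY4. At 24 h it was 0.65 for SPRY1, 1.26 for SPRY2, 3.73 for SPRY4, 1.01 for SPRED1, 1.54 for SPRED2 and -0.82 for FLRT3. Between 24 h and 1 h in Kl cells it was 1.03 for SPRY4 and 1.04 for SPRED2. Groups of 3 libraries are too small for a test of single outlying samples.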

How the results depend on the processing

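Among 1288 alternative fits of single members that gave an adjusted p, 1223 kept their side of the threshold, 61 lost a call and 4 gained one. The sign changed in 44, none of them called in either fit, and in 2 of these by more than 1 SE. No called value reversed. With the replicate block 1 member, SPRY4, was called between 24 h and 1 h in place of 2, and the block changed no other call of a member. The RLE scaling also left 1 there and the strict filter (CPM of at least 1 in 3 libraries) 0. Leaving out 1 library gave 0 to 3 there, 1 to 2 of 3 between lines in controls of 1 h, and 4 to 6 of 7 in controls of 24 h, where the fit to all 24 libraries gave 4. The cause was not tested.

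Counts over all genes moved more. The fit to all 24 libraries gave 859 calls in place of 90 in Kl at 1 h, 1524 in place of 3128 in Kl at 24 h, 0 in place of 111 in WT at 24 h, 131 in place of 60 and 673 in place of 2515 between lines at 1 h and 24 h, 1039 in place of 246 between treatments, and 4183 in place of 6757 in controls of 24 h. DESeq2 gave 181, 100 and 491 and the fit without filter 236, 207 and 770 in Kl at 1 h, between lines at 1 h and between treatments. voom gave 379 between treatments, and the block 176 and 92 for the first pair. Leaving out 1 library gave 40 (Kl control 2) to 163 (treated library 1) in Kl at 1 h, 1952 (treated library 3) to 4257 (treated library 1) in Kl at 24 h, 29 (treated library 3) to 389 (treated library 2) in WT at 24 h, 32 (WT control 2) to 119 (treated Kl library 2) between lines at 1 h, and 100 (treated library 2 of 24 h) to 813 (treated library 2 of 1 h) between treatments. By library size only, controls of 24 h split into 2548 higher and 4218 lower in place of 3487 and 3270. Replicates of 3 limit what a small change can show: SPRY4 had 26 to 63 counts per library outside treated Kl cells.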
